A study of Mus musculus with 6 samples.

Results

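The enzymes that attach glutathione, glucuronic acid or sulfate to small molecules were examined in intestinal adenomas of 2 mouse genotypes. The members are the protein-coding genes whose symbol begins with Gst followed by a, k, m, o, p or t and a digit, with Mgst and a digit, with Ugt1, Ugt2 or Ugt3, or with Sult and a digit, and there are 66 of them among the 34866 genes quantified. They comprise 4 GST alpha, 7 GST mu, 3 GST pi, 4 GST theta, 2 GST omega, 1 GST kappa and 3 microsomal GST genes, 9 UGT1, 10 UGT2 and 2 UGT3 genes, and 6 SULT1, 9 SULT2 and 6 other SULT genes. Another 7 genes with matching symbols are not protein-coding and were left out. Adenomas were excised from C57BL/6J mice aged between 100 and 120 days, of genotype Apc1322T/+ (3 libraries, called Apc1322T replicates 1, 2 and 3) or ApcMin/+ (3 libraries, called ApcMin replicates 1, 2 and 3). Both genotypes carry 1 truncating germline allele of the tumour suppressor Apc beside a wild-type allele, the Apc1322T product being the longer one, and no library of a mouse without an Apc mutation was part of the comparison. The tissue was whole adenoma with its stroma, and RNA of several extractions from a mouse was typically pooled for a sample.

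Conjugation is the step by which cells make drugs, dietary chemicals, bile pigment and hormones more soluble, so that they can be pumped out. Glutathione S-transferases (GSTs) join the tripeptide glutathione to reactive electrophiles, UDP-glucuronosyltransferases (UGTs) sit in the endoplasmic reticulum and transfer glucuronic acid from UDP-glucuronic acid, and cytosolic sulfotransferases (SULTs) transfer sulfate from the donor PAPS. The absorptive cells of the small intestine, the enterocytes, are a main site of this chemistry outside the liver. Many of the genes lie in clusters of close copies, and the Ugt1 genes share all their exons but the first.

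The libraries held between 23132461 and 33518324 estimated counts, and the members took between 0.243% and 0.441% of them. Levels are given as CPM, the counts of a gene scaled to its library's total after TMM normalization. The floor of detection was set at 3 counts, which is 0.0895 CPM in the deepest and 0.130 CPM in the shallowest library and allows for counting error only. The adenoma stem cell marker Lgr5 stood between 6.20 and 7.15 log2 CPM and the epithelial marker Vil1 between 9.24 and 10.64 in the 6 libraries. ApcMin replicate 1 held RNA of pancreatic markers, which summed to 209.9 CPM there and to at most 1.61 CPM elsewhere. Squamous epithelium markers summed to between 6.35 and 8.71 CPM in Apc1322T and between 33.7 and 45.7 CPM in ApcMin libraries. Markers of liver, the organ with the highest conjugating activity, summed to between 16.8 and 34.1 CPM, with Fgb at 0 in every library.

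Of the 66 members, 54 had at least 1 count and 40 passed the filter on low counts. Per kb of exon, 6 of these 40 averaged over 100 CPM per kb across the 6 libraries, 18 between 10 and 100, 13 between 1 and 10, and 3 at most 1. The highest levels per length were those of Gsta1 (232 CPM per kb), Gsto1 (230), Mgst3 (179.5), Gstp1 (168), Sult6b2 (144) and Gsta4 (114), so that 5 of the 6 encode GSTs. Ugt2b34 (47.5 CPM per kb) and Ugt1a7c (41.3) were the highest of the UGTs. The order depends on the length used, here the merged exons. Per kb of the longest transcript, Gsto1 (394) and Gstp1 (317) stood above Gsta1 (254), Gsta4 (148) above Sult6b2 (144), and Ugt1a7c (52.7) above Ugt2b34 (47.5). The level of Gsta1 also rests on reads that it largely shares with close copies. As a share of all CPM of the members, without regard to length, Gsto1 took 14.6%, Sult6b2 9.79%, Gstp1 8.17% and Gsta1 6.97%. The 26 members below the filter had at most 39 counts in any library, and 12 of them had 0 in all 6.

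The question of the comparison was whether adenomas of the 2 genotypes differ in RNA levels. Fold changes are given on the log2 scale and are positive where ApcMin was higher. Over the 66 members together, the summed level was 2731, 4851 and 3698 CPM in Apc1322T replicates 1, 2 and 3 (mean 3760 ± 1060, SD, n = 3) and 2429, 2309 and 3095 CPM in ApcMin replicates 1, 2 and 3 (mean 2611 ± 423, SD, n = 3). The groups overlapped, since Apc1322T replicate 1 lay below ApcMin replicate 3. Since these are whole adenomas, fewer cells of a type and less RNA per cell cannot be told apart.

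No member passed an adjusted p of 0.01 in edgeR's quasi-likelihood test, as was so for all genes (0 of 16536 tested, 0%). The smallest adjusted p of a member was 0.28 (edgeR). DESeq2 called 194 of 17503 genes (1.11%) at that threshold and 0 of the 43 members it gave an adjusted p, the smallest being 0.032 for Gstk1. At an unadjusted p under 0.05, edgeR had 8 of the 40 members lower in ApcMin, where 7.6% of all genes tested were so, and 1 higher, against 7.49% of all genes. The 8 were Gsto1, Gstp1, Gstp2, Gstk1, Gstt2, Gstt3, Mgst3 and Sult1b1, and the 1 was Sult1a1. The libraries of the genotypes did not overlap for 6 members lower in ApcMin (9.96% of all genes) and for 1 higher (11% of all genes).

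The direction was uneven. Of the 40 members tested, 32 had a fold change below 0 and 8 above it, with a median of -0.45, while 7875 of the 16536 genes tested were below 0 and their median was 0.017. Leaving out each library in turn gave between 30 and 37 members below 0, of between 41 and 44 tested, and a median between -0.61 (without Apc1322T replicate 1) and -0.19 (without Apc1322T replicate 2, when 14 members were above 0). The number lower at an unadjusted p under 0.05 turned on single libraries: it was 19 of 41 without Apc1322T replicate 1, when 13.2% of all genes were so, and 4 of 44 without Apc1322T replicate 2, when 2.99% were.

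**Figure D1:**
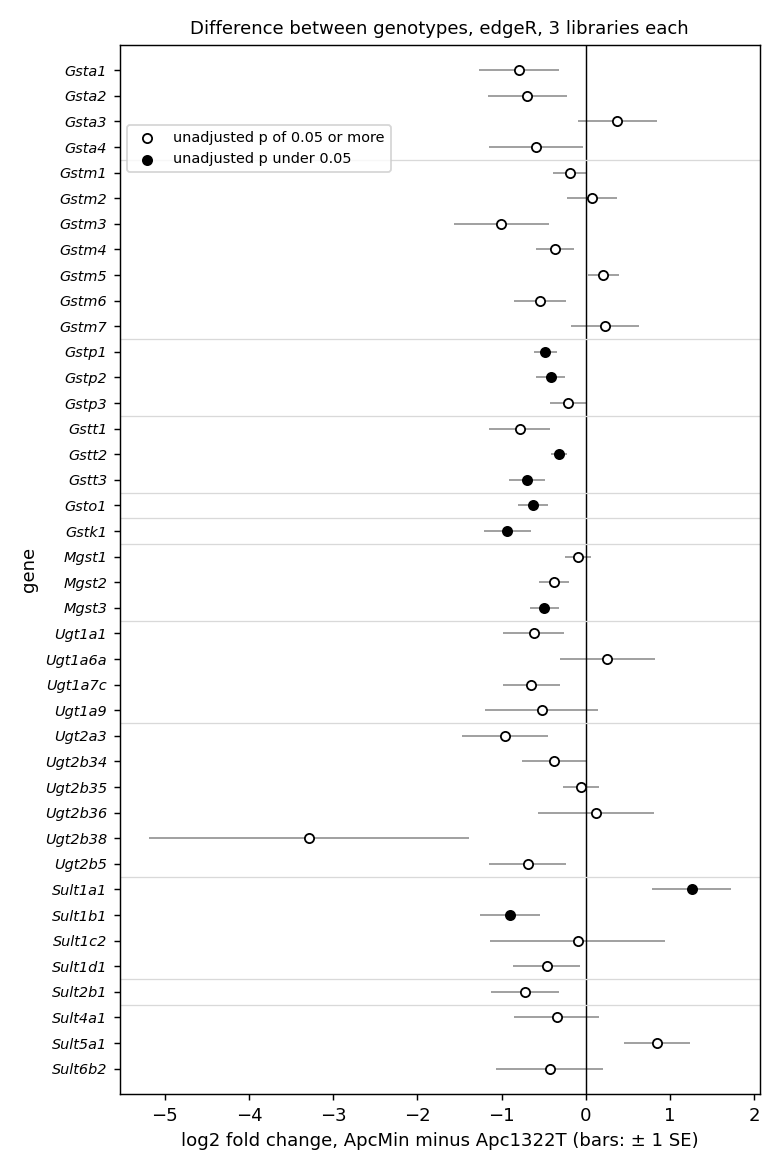
Log2 fold change between ApcMin and Apc1322T adenomas (horizontal axis, bars ± 1 SE from edgeR, 3 libraries per genotype) for the 40 members tested, in the order of their families, with filled points for an unadjusted p under 0.05. Of these points, 32 lie left of 0, and the filled ones are 8 GST and SULT genes on the left and Sult1a1 on the right.

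The spread between the 6 libraries was wide for many members. It is given as the range over both genotypes, so that it includes any difference between them. Over the 6 libraries the median range of the 40 members was 1.54 on the log2 CPM scale, against 0.65 for all genes tested, and 29 of the 40 (72.5%) had a range over 1, against 33.3% of all genes. Apc1322T replicate 2 held the highest value of 24 of the 40 members (19.3% of all genes) and the lowest value of 0 of them (21.4% of all genes). ApcMin replicate 2 held the lowest value of 16 members (14.4% of all genes).

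**Figure D2:**
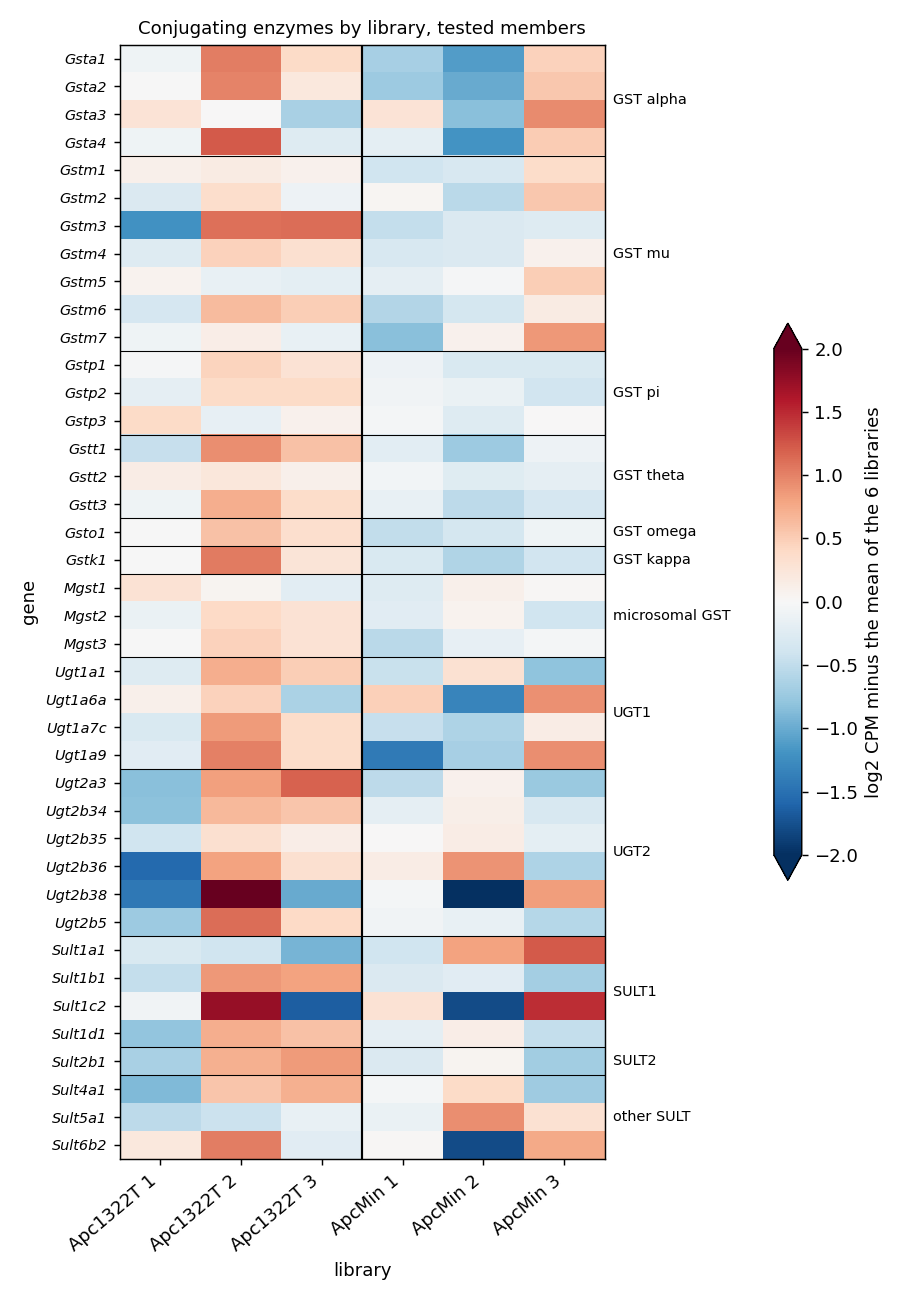
Level of each member tested (rows, by family) in each library (columns, Apc1322T left and ApcMin right of the line), as log2 CPM minus the mean of the 6 libraries, with colours saturating at ± 2, which the values of Ugt2b38 exceed. The column of Apc1322T replicate 2 is red in most rows, where it holds 24 of the highest values, while ApcMin replicate 2 has the deepest blue for Gsta4, Sult1c2, Sult6b2 and Ugt2b38.

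The GST alpha genes encode the abundant GSTs of enterocytes and hepatocytes, and Gsta4 the form that conjugates the lipid peroxidation product 4-hydroxynonenal. Gsta1 (GRCm38 chromosome 9, 78230656 to 78242684, plus strand) stood at 7.55, 8.65 and 8.01 log2 CPM in Apc1322T replicates 1, 2 and 3 and at 6.96, 6.51 and 8.09 in ApcMin replicates 1, 2 and 3. Gsta4 (chromosome 9, 78182774 to 78209349, plus strand) stood at 6.89, 8.21 and 6.73 and at 6.79, 5.78 and 7.50 log2 CPM in the same order. For both genes Apc1322T replicate 2 was the highest and ApcMin replicate 2 the lowest library, and the genotypes overlapped, through ApcMin replicate 3 for Gsta1 and through ApcMin replicates 1 and 3 for Gsta4. The fold change of Gsta1 was -0.79 (SE 0.47, adjusted p = 0.44) and that of Gsta4 -0.59 (SE 0.56, adjusted p = 0.62), and without Apc1322T replicate 2 the value for Gsta4 turned to 0.030. Gsta3 differed in direction, with a fold change of 0.37 (SE 0.47, adjusted p = 0.71) and its lowest values of 2.93 in Apc1322T replicate 3 and 2.73 in ApcMin replicate 2.

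The reads cannot well separate Gsta1 from its close copies. Of the 50-base stretches in the transcripts of Gsta1, 9.5% occur in no other quantified gene, and 75.7% occur in Gm3776, a protein-coding gene next to it (chromosome 9, 78257129 to 78269166) whose symbol the rule does not take. The share found in no other gene was 50.2% for Gsta2, 99.75% for Gsta3 and 100% for Gsta4. Gm3776 had a similar order of libraries, at 6.53, 7.37 and 6.68 log2 CPM in Apc1322T replicates 1, 2 and 3 and at 5.80, 5.52 and 7.10 in ApcMin replicates 1, 2 and 3. Counted together, Gsta1, Gsta2 and Gm3776 stood at 8.39, 9.40 and 8.73 and at 7.74, 7.37 and 8.94 log2 CPM, with a fold change of -0.73 (SE 0.47, adjusted p = 0.47). ApcMin replicate 3 again lay within the Apc1322T range.

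Of the GST mu genes, a cluster of 7 on chromosome 3, all passed the filter and none had an unadjusted p under 0.05. Gstm5 was the highest, at 5.91, 5.70 and 5.65 log2 CPM in Apc1322T replicates 1, 2 and 3 and at 5.66, 5.82 and 6.33 in ApcMin replicates 1, 2 and 3, with a fold change of 0.21 (SE 0.19, adjusted p = 0.59) that was -0.019 without ApcMin replicate 3. Gstm1 stood at 5.92, 5.97 and 5.90 and at 5.42, 5.50 and 6.17 log2 CPM, with a fold change of -0.19 (SE 0.20, adjusted p = 0.66). These were among the steadier members. Gstm3 was the widest of the cluster, with 3.58, 5.88 and 5.90 log2 CPM in Apc1322T and 4.31, 4.50 and 4.52 in ApcMin replicates 1, 2 and 3, so that the 3 ApcMin libraries fell between Apc1322T replicate 1 and the other Apc1322T libraries.

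GST pi, whose human form is much studied in tumours, is encoded in the mouse by Gstp1, Gstp2 and Gstp3 on chromosome 19. Gstp1 (4035407 to 4037985, minus strand) stood at 7.98, 8.44 and 8.28 log2 CPM in Apc1322T replicates 1, 2 and 3 (mean 8.23 ± 0.23, SD, n = 3) and at 7.90, 7.69 and 7.69 in ApcMin replicates 1, 2 and 3 (mean 7.76 ± 0.12, SD, n = 3). All ApcMin libraries lay below all Apc1322T libraries, with a fold change of -0.48 (SE 0.14, unadjusted p = 0.0107, adjusted p = 0.28). Gstp2 (4040285 to 4046023, minus strand) stood at 5.93, 6.49 and 6.50 and at 6.03, 5.97 and 5.73 log2 CPM, with a fold change of -0.42 (SE 0.17, unadjusted p = 0.048, adjusted p = 0.33) and an overlap through Apc1322T replicate 1. The 2 coding sequences are of equal length and match at 618 of 630 bases (98.1%). Reads within the coding sequence can be told apart only where they cross differing bases. The 50-base stretch in which the pair differs most, coding bases 1 to 50 from the start codon, is shown (GRCm38, differing bases in capitals):
Gstp1: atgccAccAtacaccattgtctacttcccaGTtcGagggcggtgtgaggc
Gstp2: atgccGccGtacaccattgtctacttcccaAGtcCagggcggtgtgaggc
Of the 581 stretches of 50 coding bases, 412 (70.9%) are identical in the pair. Over whole transcripts, 66.3% of the 50-base stretches of Gstp1 and 45.7% of those of Gstp2 occur in no other quantified gene. Counted together, the pair stood at 8.29, 8.77 and 8.65 log2 CPM in Apc1322T and at 8.25, 8.07 and 8.02 in ApcMin replicates 1, 2 and 3, again with no overlap, and with a fold change of -0.47 (SE 0.14, adjusted p = 0.28). Gstp3, which shares no 50-base stretch with other genes, had 2.14 to 2.68 log2 CPM in Apc1322T and 2.04 to 2.30 in ApcMin libraries.

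The theta, omega and kappa classes gave 4 of the 6 members whose ApcMin libraries all lay lower. Gsto1, the omega class enzyme, which reduces dehydroascorbate and methylated arsenic species, stood at 8.81, 9.40 and 9.15 log2 CPM in Apc1322T replicates 1, 2 and 3 (mean 9.12 ± 0.30, SD, n = 3) and at 8.33, 8.46 and 8.73 in ApcMin replicates 1, 2 and 3 (mean 8.50 ± 0.21, SD, n = 3). Its fold change was -0.63 (SE 0.18, unadjusted p = 0.0109, adjusted p = 0.28), and the gap between ApcMin replicate 3 and Apc1322T replicate 1 was small beside the range within either genotype. Its neighbour Gsto2 had between 7 and 14 counts and was not tested.

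Gstk1, the GST of mitochondria and peroxisomes, had the largest fold change of these 6, at -0.93 (SE 0.28, unadjusted p = 0.0135, adjusted p = 0.28). Its levels were 5.75, 6.80 and 6.01 log2 CPM in Apc1322T and 5.44, 5.14 and 5.37 in ApcMin replicates 1, 2 and 3, so that Apc1322T replicate 2 stood apart while the ApcMin libraries were close together. Gstt3 stood at 4.82, 5.64 and 5.28 and at 4.77, 4.39 and 4.58 log2 CPM, with a fold change of -0.70 (SE 0.22, unadjusted p = 0.0153, adjusted p = 0.29). Gstt2 had the narrowest groups, at 4.86, 4.94 and 4.82 and at 4.66, 4.48 and 4.53 log2 CPM, and the smallest fold change of the 6, -0.32 (SE 0.09, unadjusted p = 0.0118, adjusted p = 0.28). The theta enzymes act on small halogenated and sulfate ester substrates, and their genes lie side by side on chromosome 10. Gstt1 overlapped between the genotypes, at 3.53 to 4.92 log2 CPM in Apc1322T and 3.26 to 3.88 in ApcMin, and Gstt4 had 2 counts in all.

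The microsomal GSTs are membrane proteins, of which Mgst2 and Mgst3 can also take part in leukotriene chemistry. Mgst3 stood at 7.58, 8.05 and 7.88 log2 CPM in Apc1322T replicates 1, 2 and 3 and at 7.05, 7.42 and 7.54 in ApcMin replicates 1, 2 and 3, without overlap and with a fold change of -0.49 (SE 0.17, unadjusted p = 0.0242, adjusted p = 0.30). Mgst2 stood at 6.63, 7.16 and 7.05 and at 6.53, 6.83 and 6.36 log2 CPM, with a fold change of -0.38 (SE 0.18, adjusted p = 0.36). Mgst1 had the narrowest range of the 3, from 6.35 to 6.90 log2 CPM, and a fold change of -0.10 (SE 0.15, adjusted p = 0.78).

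**Figure D3:**
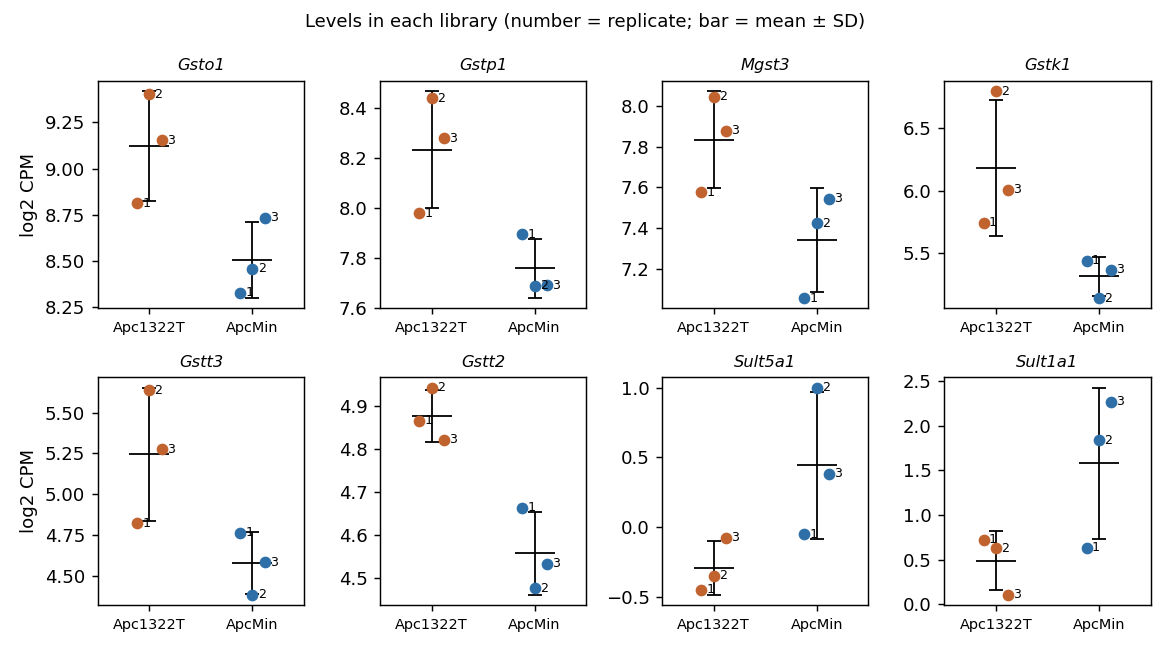
Log2 CPM in each library (points, numbered by replicate; bars, mean ± SD, n = 3) of the 6 members that lay lower in every ApcMin library, of Sult5a1, which lay higher in every ApcMin library, and of Sult1a1. Vertical axes differ between panels and do not start at 0. The gap between the genotypes is narrowest for Mgst3 and Sult5a1 and narrow beside the spread within a genotype for Gsto1, Gstp1 and Gstt3 too, and ApcMin replicate 1 lies within the Apc1322T range for Sult1a1.

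Summed markers of other cells also varied between the libraries, and not all in the direction of these 6 genes. Goblet cell markers summed to 5990, 9174 and 8787 CPM in Apc1322T and to 5978, 5273 and 4065 CPM in ApcMin replicates 1, 2 and 3, and 4 of the 7 were lower at an unadjusted p under 0.05. Fibroblast markers summed to between 603.8 and 1523 CPM in Apc1322T and between 982.5 and 3304 CPM in ApcMin libraries, with 2 of 6 higher at that level. Enterocyte markers summed to 18610, 33240 and 33660 CPM in Apc1322T and to 12210, 23900 and 12770 CPM in ApcMin replicates 1, 2 and 3, with 2 of 12 lower. At that level 7.6% of all genes tested were lower and 7.49% higher. The part of goblet cells, fibroblasts and enterocytes, and of the squamous and pancreatic RNA, in the differences was not tested.

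The UGT1 genes are made from a single locus on chromosome 1, in which each gene has its own first exon, spliced to 4 shared exons that start at 88215044. Ugt1a1 is the enzyme that conjugates bilirubin. The last 30 bases of the first exon, in lower case, and the first 20 bases of the shared second exon, in capitals, are shown for the 4 genes that passed the filter (GRCm38, plus strand), because a read that lies wholly in the shared exons fits every Ugt1 gene:
Ugt1a9: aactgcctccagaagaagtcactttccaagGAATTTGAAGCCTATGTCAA
Ugt1a7c: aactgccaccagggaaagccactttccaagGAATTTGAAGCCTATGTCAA
Ugt1a6a: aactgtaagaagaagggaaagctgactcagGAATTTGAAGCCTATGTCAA
Ugt1a1: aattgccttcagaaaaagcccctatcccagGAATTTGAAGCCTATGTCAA
A longer 3′ end is annotated for Ugt1a7c. In the transcript taken for each gene, Ugt1a7c has 2316 bases after its first exon where the others have between 1311 and 1318. Other annotated transcripts of these genes were not compared in this way. Over all of them, 52.8% of the 50-base stretches of Ugt1a7c also occur in Ugt1a6a. Between 38.0% and 47.9% of the 50-base stretches of these 4 genes occur in no other quantified gene. Ugt1a7c stood at 7.04, 8.20 and 7.72 log2 CPM in Apc1322T replicates 1, 2 and 3 and at 6.90, 6.73 and 7.51 in ApcMin replicates 1, 2 and 3, with a fold change of -0.65 (SE 0.34, adjusted p = 0.40). Ugt1a1 stood at 6.06, 7.05 and 6.82 and at 5.88, 6.62 and 5.51 log2 CPM, with a fold change of -0.62 (SE 0.36, adjusted p = 0.43). Both were highest in Apc1322T replicate 2, but the lowest library was ApcMin replicate 2 for Ugt1a7c and ApcMin replicate 3 for Ugt1a1.

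Ugt1a9 was far lower, at 0.75, 1.99 and 1.36 log2 CPM in Apc1322T and -0.43, 0.32 and 1.92 in ApcMin replicates 1, 2 and 3, a range of 2.42. Its fold change was -0.52 (SE 0.67, adjusted p = 0.72). Ugt1a6a, a form that conjugates small phenols, was the UGT1 gene with the opposite sign, at 0.25 (SE 0.57, adjusted p = 0.84), and ran from 2.85 in ApcMin replicate 2 to 5.08 in ApcMin replicate 3. All 9 Ugt1 genes counted together stood at 7.78, 8.83 and 8.40 log2 CPM in Apc1322T and 7.67, 7.74 and 8.06 in ApcMin replicates 1, 2 and 3, with a fold change of -0.57 (SE 0.27, adjusted p = 0.36). The remaining 5 genes had between 0 and 39 counts per library.

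The UGT2 genes lie on chromosome 5 and encode enzymes that act on steroids, bile acids and fatty acids. Ugt2b34 stood at 6.77, 8.24 and 8.14 log2 CPM in Apc1322T replicates 1, 2 and 3 and at 7.42, 7.71 and 7.27 in ApcMin replicates 1, 2 and 3, with a fold change of -0.38 (SE 0.38, adjusted p = 0.64). Ugt2a3 stood at 3.64, 5.29 and 5.66 and at 3.96, 4.57 and 3.74 log2 CPM, with a fold change of -0.96 (SE 0.51, adjusted p = 0.41). In both genes Apc1322T replicates 2 and 3 were the highest and Apc1322T replicate 1 was the lowest library, so that the spread within Apc1322T enclosed all ApcMin values.

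Ugt2b38 had the widest range of all members, 7.65, which came from 1 library. Its estimated counts were 4, 308 and 5 in Apc1322T replicates 1, 2 and 3 and 18, 0 and 31 in ApcMin replicates 1, 2 and 3. The fitted fold change of -3.29 (SE 1.90, adjusted p = 0.43) became 1.44 without Apc1322T replicate 2. The gene is close to Ugt2b5, and their coding sequences match at 97.0% of 1590 bases. The 50 bases in which they differ most, coding bases 1472 to 1521, are shown with the differences in capitals. The share of the 308 counts that belongs to either gene rests in part on such bases:
Ugt2b38: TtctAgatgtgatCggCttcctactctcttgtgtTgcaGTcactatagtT
Ugt2b5: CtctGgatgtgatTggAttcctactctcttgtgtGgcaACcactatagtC
Over whole transcripts, 62.6% of the 50-base stretches of Ugt2b38 and 58.3% of those of Ugt2b5 occur in no other quantified gene. Ugt2b5 itself was also highest in Apc1322T replicate 2, with 217 counts against 77 to 162 in the other libraries. Counted together, the pair had 81, 525 and 148 counts in Apc1322T and 180, 109 and 131 in ApcMin replicates 1, 2 and 3, so that the high library remained and the fold change was -1.35 (SE 0.74, adjusted p = 0.42).

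Ugt2b36, at 9 to 42 counts in Apc1322T and 22 to 54 in ApcMin libraries, had a fold change of 0.12 (SE 0.69, adjusted p = 0.94) that was -0.33 without Apc1322T replicate 1 and -0.35 without ApcMin replicate 2. Ugt2b35 was the steadiest UGT2 gene, from 3.23 to 3.96 log2 CPM in all libraries. Of the genes below the filter, Ugt2b37 and Ugt2a1 had 0 counts in every library, Ugt2a2 at most 3 and Ugt2b1, a form of the liver, at most 2. Of the UGT3 genes, Ugt3a2 had 0 counts in every library and Ugt3a1 at most 7.

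The SULT1 genes encode sulfotransferases of phenols, catechols and thyroid hormones. Sult1b1 (chromosome 5, 87513339 to 87538195, minus strand), the highest of them, stood at 6.70, 8.05 and 7.98 log2 CPM in Apc1322T replicates 1, 2 and 3 and at 6.88, 6.96 and 6.50 in ApcMin replicates 1, 2 and 3. Its fold change was -0.90 (SE 0.36, unadjusted p = 0.0449, adjusted p = 0.32), and Apc1322T replicate 1 lay within the ApcMin range. Sult1d1, next to it on chromosome 5, stood at 5.68, 7.19 and 7.05 and at 6.29, 6.60 and 5.99 log2 CPM, with a fold change of -0.47 (SE 0.40, adjusted p = 0.58).

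Sult1a1 was the 1 member with an unadjusted p under 0.05 that was higher in ApcMin. It was low throughout, with 43, 31 and 23 counts in Apc1322T and 53, 89 and 150 counts in ApcMin replicates 1, 2 and 3, or 0.72, 0.63 and 0.11 against 0.64, 1.84 and 2.27 log2 CPM. The fold change was 1.25 (SE 0.46, unadjusted p = 0.0316, adjusted p = 0.31), and ApcMin replicate 1 lay among the Apc1322T libraries. Sult1a1 was not called at that level in limma-voom, with the replicate number as a block, or without ApcMin replicate 2 or 3, under which no member was called higher.

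Sult1c2 showed the same spread within both genotypes, with 90, 247 and 24 counts in Apc1322T and 151, 24 and 309 in ApcMin replicates 1, 2 and 3. On the log2 CPM scale this is a range of 3.54, with a fold change of -0.10 (SE 1.04, adjusted p = 0.97) whose sign turned under 5 alternatives. Sult1c1 had 0 counts in every library, and Sult1e1, the estrogen sulfotransferase, at most 4.

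Of the 9 SULT2 genes, Sult2b1, which sulfates cholesterol, passed the filter. It stood at 5.51, 6.87 and 7.01 log2 CPM in Apc1322T replicates 1, 2 and 3 and at 5.86, 6.21 and 5.46 in ApcMin replicates 1, 2 and 3, with a fold change of -0.72 (SE 0.41, adjusted p = 0.42). The Sult2a genes on chromosome 7, sulfotransferases of bile acids and steroids in the liver, were near absent, with 0 counts in every library for Sult2a1 to Sult2a6 and 3 counts in all for Sult2a7. Sult2a8 was an exception of small size, with 0, 2 and 2 counts in Apc1322T and 11, 20 and 12 in ApcMin replicates 1, 2 and 3. It was below the filter of the edgeR test and is named after its values were seen. DESeq2, run without that filter, gave it an unadjusted p of 0.0088 and an adjusted p of 0.138.

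Sult6b2, an enzyme whose substrates are little known, was the highest sulfotransferase and the fifth member by level per kb of merged exons. It stood at 8.26, 9.08 and 7.82 log2 CPM in Apc1322T replicates 1, 2 and 3 and at 8.07, 6.27 and 8.82 in ApcMin replicates 1, 2 and 3. That is 1960 counts in ApcMin replicate 2 and 14252 in ApcMin replicate 3, within 1 genotype. The fold change was -0.43 (SE 0.64, adjusted p = 0.76), and it was 0.0056 without ApcMin replicate 2. Sult4a1, best known from brain, had 25 to 67 counts and a fold change of -0.35 (SE 0.51, adjusted p = 0.75).

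Sult5a1 was the 1 member that lay higher in every ApcMin library, with 18, 15 and 20 counts in Apc1322T and 32, 49 and 39 in ApcMin replicates 1, 2 and 3. Its fold change was 0.84 (SE 0.39, unadjusted p = 0.0706, adjusted p = 0.36). Sult3a1 and Sult3a2 had 0 counts in every library, and Sult6b1 had between 6 and 16.

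By family, the summed level was lower in ApcMin in each of the 12 families with tested members, with log2 ratios of the genotype means from -0.19 (GST mu) to -0.93 (GST kappa). Summed GST alpha took 375.7, 819.8 and 435.9 CPM in Apc1322T and 282.4, 180.5 and 556.6 CPM in ApcMin replicates 1, 2 and 3, a 4.54-fold range. The other SULT genes, mostly Sult6b2 by CPM, had the widest range of a family, 6.68-fold, and their log2 ratio of -0.43 was 0.0035 without ApcMin replicate 2. GST mu, GST pi and the microsomal GSTs had the narrowest, between 1.65-fold and 1.67-fold.

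**Figure D4:**
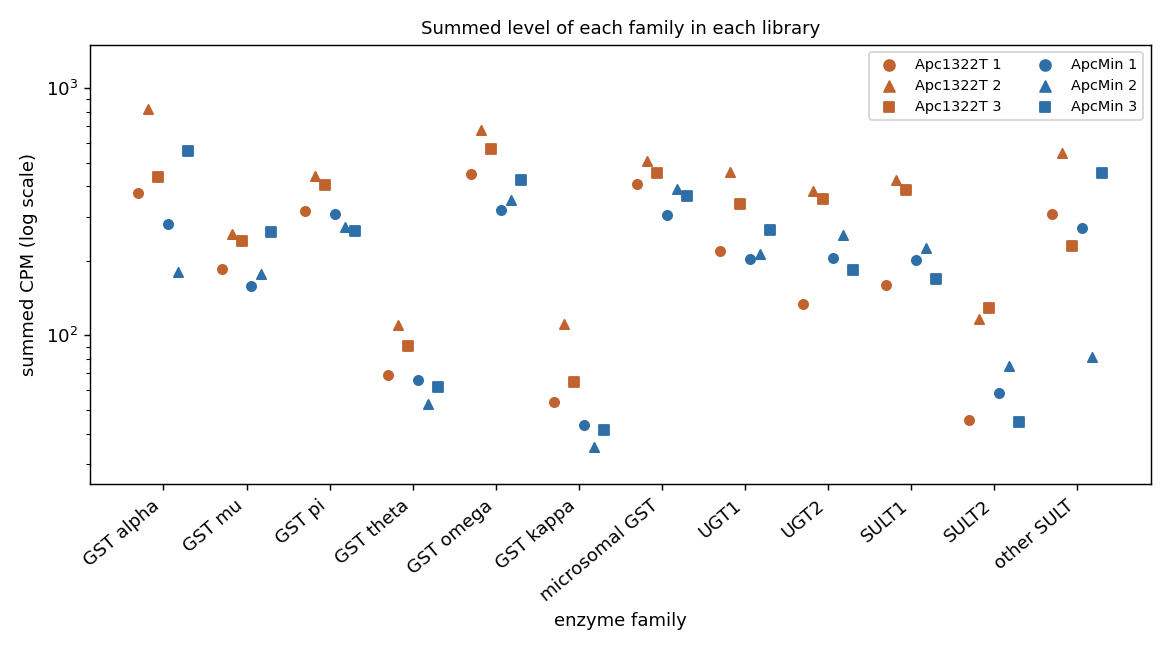
Summed CPM of all members of each family (logarithmic vertical axis) in each library, with colour for the genotype and marker shape for the replicate. GST pi, theta, omega, kappa and microsomal GST show every ApcMin point below every Apc1322T point, while the other families overlap. GST alpha, theta and kappa and the other SULT genes have their lowest point in ApcMin replicate 2 and their highest in Apc1322T replicate 2.

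The members differed in which libraries were low. ApcMin replicate 3 and Apc1322T replicate 1 were the 2 lowest libraries of 10 of the 40 members (25%, against 11.4% of all genes tested), namely Gstp2, Sult1b1, Sult1d1, Sult2b1, Sult4a1, Ugt2a3, Ugt2b34, Ugt2b35, Ugt2b36 and Ugt2b5. ApcMin replicates 1 and 2 were the 2 lowest of 9 (22.5%, against 7.15%), namely Gsta1, Gsta2, Gstm1, Gstm4, Gstm6, Gsto1, Mgst3, Ugt1a7c and Ugt1a9, and ApcMin replicates 2 and 3 of 4 (10%, against 8.22%), namely Gstk1, Gstp1, Gstt2 and Gstt3. ApcMin replicate 2 and Apc1322T replicate 3 were the 2 lowest of 5 (12.5%, against 6.89%), namely Gsta3, Gsta4, Sult1c2, Sult6b2 and Ugt1a6a. Apc1322T replicates 2 and 3 were the 2 highest libraries of 20 members (50%, against 20.2%), and Apc1322T replicate 2 and ApcMin replicate 3 of 10 (25%, against 3.75%), among them Gsta1, Gsta2, Gsta4, Sult1c2 and Sult6b2. Some of these pairs thus lie within a genotype and others hold 1 library of each.

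Some markers of place along the intestine and of the enterocyte had the same libraries as their lowest, and others of the same lists did not. Cybrd1, the duodenal iron reductase, stood at 10.12, 9.54 and 7.16 log2 CPM in Apc1322T replicates 1, 2 and 3 and at 9.40, 6.73 and 10.69 in ApcMin replicates 1, 2 and 3. Pdx1, a transcription factor of the duodenum, stood at 4.84, 5.29 and 3.51 and at 4.82, 2.10 and 5.22 log2 CPM. Both were lowest in ApcMin replicate 2 and Apc1322T replicate 3, the libraries that were low for Gsta4, Sult6b2 and Sult1c2.

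Anpep, an aminopeptidase of the enterocyte brush border, stood at 8.04, 10.75 and 11.35 log2 CPM in Apc1322T and at 9.91, 10.34 and 7.09 in ApcMin replicates 1, 2 and 3. Sis, the sucrase of the brush border, stood at 7.59, 9.16 and 9.77 and at 8.76, 9.52 and 6.99 log2 CPM. Both were lowest in ApcMin replicate 3 and Apc1322T replicate 1, the libraries that were low for Sult1b1, Sult2b1 and Ugt2a3. These were picked after their values were seen, and the lists as a whole were mixed. Of the 8 proximal markers, 4 (Pdx1, Onecut2, Slc40a1 and Cybrd1) had ApcMin replicate 2 and Apc1322T replicate 3 as their 2 lowest libraries, and the list summed to 3223, 4105 and 3247 CPM in Apc1322T and 2058, 2081 and 3404 CPM in ApcMin replicates 1, 2 and 3, lowest in ApcMin replicate 1. Of the 12 enterocyte markers, 5 (among them Fabp2, Sis, Vil1 and Anpep) had Apc1322T replicate 1 and ApcMin replicate 3 as their 2 lowest, while the summed list, given above, was lowest in ApcMin replicates 1 and 3. The 8 distal markers summed to 100.2, 240.4 and 282.5 CPM in Apc1322T and 485.1, 511.4 and 96.5 CPM in ApcMin replicates 1, 2 and 3, and 6 of them had Apc1322T replicate 1 and ApcMin replicate 3 as their 2 lowest libraries. The labels do not give the place of the adenomas along the intestine, and its part in these values was not tested.

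**Figure D5:**
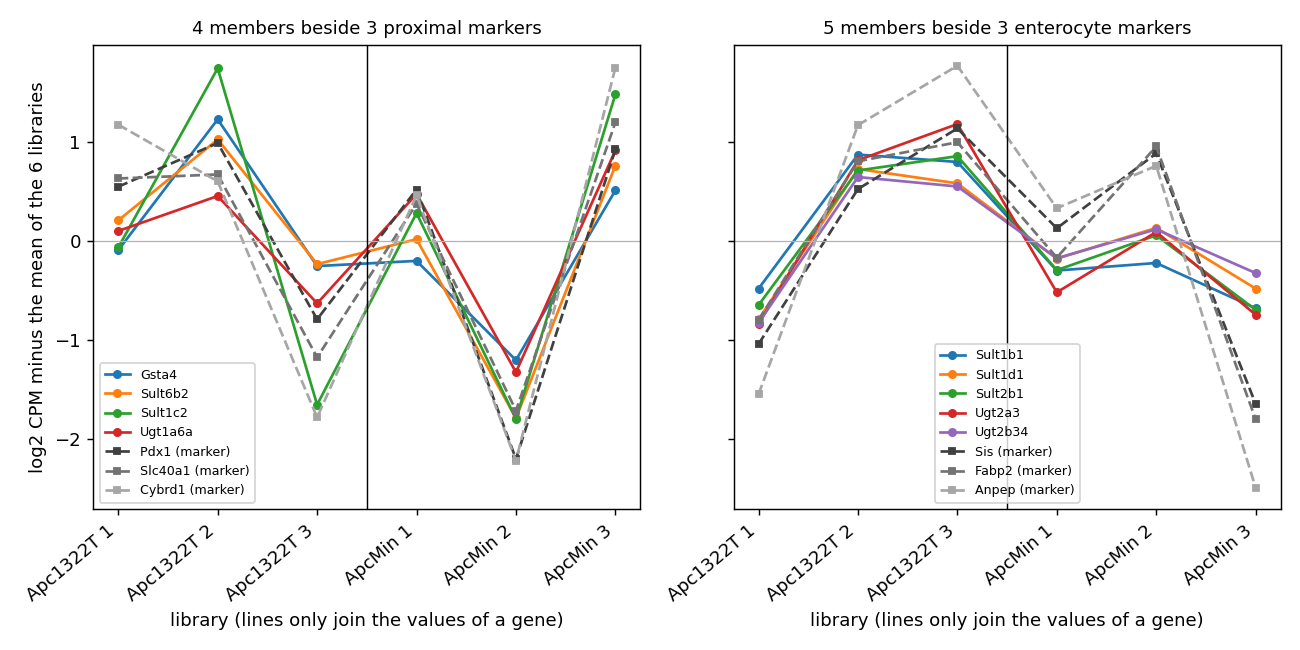
Log2 CPM minus the mean of the 6 libraries (vertical axis) for 4 members beside 3 proximal intestinal markers (left) and for 5 members beside 3 enterocyte markers (right), genes chosen for display after their values were seen. On the left ApcMin replicate 2 and Apc1322T replicate 3 are the 2 lowest libraries of every gene, and on the right Apc1322T replicate 1 and ApcMin replicate 3 are. This match follows from the choice of genes. In the full lists, 4 of 8 proximal and 5 of 12 enterocyte markers have these libraries as their 2 lowest. The pair on the right is not particular to enterocyte markers, since 6 of 8 distal markers, not drawn, have it too.

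The genes that feed the enzymes were examined as lists. Of 18 genes of glutathione synthesis and turnover, 3 were higher and 2 lower in ApcMin at an unadjusted p under 0.05. Of all genes tested, 7.49% were higher and 7.6% lower at that level. Slc7a11, which imports cystine for glutathione synthesis, stood at 2.73, 2.02 and 2.56 log2 CPM in Apc1322T replicates 1, 2 and 3 and at 4.09, 3.67 and 3.24 in ApcMin replicates 1, 2 and 3. Its fold change was 1.25 (SE 0.28, adjusted p = 0.26 in edgeR, and 0.00676 in DESeq2, past the threshold there). Gss, the glutathione synthetase, stood at 7.41, 7.56 and 7.41 and at 7.08, 7.08 and 7.21 log2 CPM, with a fold change of -0.34 (SE 0.09, adjusted p = 0.27). The others of this list without overlap at that level were Ggt7 (fold change 1.33, SE 0.34) and Hpgds (0.79, SE 0.28), which were higher, and Chac2 (-0.35, SE 0.13), which was lower.

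Of 5 genes of UDP-glucuronic acid supply, 2 were lower (7.6% of all genes), of which Ugp2 (-0.31, SE 0.10) did not overlap between the genotypes. Of 12 tested genes of PAPS supply and sulfate ester cleavage, 2 were lower (7.6% of all genes). Of these, Bpnt1 (-0.62, SE 0.19), the phosphatase that removes the by-product of sulfation, did not overlap. Papss2, a PAPS synthase, stood at 9.46, 10.23 and 9.53 log2 CPM in Apc1322T replicates 1, 2 and 3 and at 9.39 and 7.89 in ApcMin replicates 1 and 2, with ApcMin replicate 3 between Apc1322T replicates 2 and 3. Its lowest library was ApcMin replicate 2, as for Sult6b2.

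Of 9 efflux pumps, 2 were higher (7.49% of all genes) and 1 lower (7.6%). Abcc4, which exports glucuronides, sulfates and cyclic nucleotides, stood at 5.10, 4.36 and 4.40 log2 CPM in Apc1322T replicates 1, 2 and 3 and at 5.58, 5.94 and 6.34 in ApcMin replicates 1, 2 and 3. Its fold change was 1.33 (SE 0.27, adjusted p = 0.26 in edgeR, and 5.42e-04 in DESeq2, past the threshold there). Abcc3, a pump of glucuronides at the basolateral membrane, stood at 6.48, 6.72 and 6.26 and at 5.85, 5.37 and 6.24 log2 CPM, with a fold change of -0.63 (SE 0.23, adjusted p = 0.31). Abcc5 was higher by a small amount, at 0.29 (SE 0.11, adjusted p = 0.31).

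Of 25 transcription factors of drug metabolism, 3 were higher (7.49% of all genes) and 3 lower (7.6%) at an unadjusted p under 0.05. Among those without overlap were Ahr (0.27, SE 0.10), the receptor for dioxins, Foxa2 (1.21, SE 0.36) and Mafg (0.28, SE 0.12), which were higher, and Cdx2 (-0.50, SE 0.19), which was lower. Nfe2l2, which encodes Nrf2, the activator of many GST genes, ranged from 7.37 to 7.84 log2 CPM with a fold change of -0.22 (SE 0.12, adjusted p = 0.41). Of 18 tested other targets of Nrf2, 1 was higher (Slc7a11) and 4 were lower, beside the same shares of all genes. Cbr1 (-0.57, SE 0.16) and Taldo1 (-0.29, SE 0.11) of the latter 4 did not overlap. The well-known target Nqo1 ranged from 3.61 to 4.34 log2 CPM (-0.29, SE 0.17, adjusted p = 0.43).

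Promoters, taken as 250 bases before to 50 after each RefSeq start on GRCm38.p6, were found for 58 of the 66 members. The core TGACNNNGC of the antioxidant response element stood, on either strand, in 4 of their 69 promoters (5.8%), those of Gsta3, Gstm5, Gstm7 and Mgst1, and in 12.4% of all 32851 promoters. The core TNGCGTG of the xenobiotic response element stood in 3 (4.35%), those of Gsta2, Sult1d1 and Ugt1a5, against 5.07% of all. The 4 members with the first motif had fold changes from -0.10 (Mgst1) to 0.37 (Gsta3).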

How the data were processed

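RNA-seq of excised adenomas was analysed for 3 Apc1322T and 3 ApcMin libraries, grouped by the genotype in the sample labels. Per the labels, libraries were made with a strand-specific kit from 1 μg of total RNA and read as single ends of 50 bases. The authors quantified reads with Salmon against GRCm38.p6, both named in the submitters' processing notes, and deposited estimated counts per gene, which are neither normalised nor all whole numbers, because Salmon divides a read that fits several transcripts by their estimated abundance. DESeq2 is named there too, but the deposited estimated counts hold no such scaling. The annotation release of the authors is not given in the sources used here. The labels do not tie libraries to single mice, so that p-values measure the spread between these samples.

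Estimated counts were rounded. Symbols and biotypes were taken from GENCODE M21 on GRCm38, by identifier, for 34582 of 34866 genes. filterByExpr (minimum count 10, minimum total count 15) kept 16536 genes, with TMM normalization. The test was edgeR's quasi-likelihood F test with robust estimation (version 4.0.16, R 4.3.3), with Benjamini-Hochberg adjustment over all genes tested and a threshold of 0.01. The standard error is the size of the fold change divided by the square root of F, and log2 CPM used a prior count of 2. Levels per kb used the merged exon length. Shared sequence was measured as stretches of 50 bases in annotated transcripts. The procedures were tested on simulated data.

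Alternatives were DESeq2 1.42.0, limma-voom (limma 3.58.1), other size factors and filters, each library left out in turn, the replicate number as a block and, chosen after seeing the data, near-identical genes counted together. The members, gene lists and motifs were chosen with earlier results of these data known. Named with values were the 2 highest tested members of each family, members with an unadjusted p under 0.05 and no overlap of libraries, members past the adjusted threshold (of which there were 0), the 6 with the widest range, and pathway genes with an unadjusted p under 0.05 and no overlap. Members and list genes named beyond these, and markers, were chosen after their values were seen. 1 gene of the pathway lists, 1 marker and 1 motif are not reported here.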

Additional observations from a re-analysis of the deposited data

How the results depend on the processing

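No member passed an adjusted p of 0.01 under any alternative run, and the direction of each family's summed level held under all that were run for it, except for the other SULT genes without ApcMin replicate 2 (log2 ratio 0.0035). Members at an unadjusted p under 0.05 numbered 9 of 40, with 8 lower and 1 higher in ApcMin, against 7.6% and 7.49% of all genes tested. The DESeq2 Wald test had 16 of 53, with 14 lower and 2 higher, against 6.09% and 5.39% of all genes. Leaving out each library gave between 5 and 20 in all and between 4 and 19 lower, with the most without Apc1322T replicate 1 and the fewest without Apc1322T replicate 2, and between 0 and 2 higher. Of all genes, between 2.99% and 13.2% were then lower and between 3.93% and 11.2% higher, with the extremes in the same 2 fits. The number higher was 0 in limma-voom (6.89% of all genes) and 2 with no filter on low counts (5.61%). Members whose libraries did not overlap numbered 7, with 6 lower and 1 higher, against 9.96% and 11% of all genes. With a library left out they numbered between 8 and 23. Groups of fewer libraries overlap less often by construction, and the share of all genes was not counted for these fits. The rise is therefore not read as a trait of the members. Pathway genes at an unadjusted p under 0.05 numbered 22, and between 8 and 35 with a library left out. In the main fit the lists held 18, 5, 12, 9, 25 and 18 tested genes, some of them in more than 1 list. The number tested with a library left out is not given, so that those counts are not set against the shares of all genes.

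The replicate number as a block left 0 members higher at an unadjusted p under 0.05 and turned the fold change of Sult1c2 to 0.11, as limma-voom did (0.11). Same-numbered libraries did not deviate together (r = -0.01, 0.16 and -0.29), so that the numbers were not taken as a pairing. Leaving out each library turned the sign of 6 named fold changes. Over these alternatives they ran from -1.07 to 0.030 for Gsta4 and from -4.17 to 1.44 for Ugt2b38, both highest without Apc1322T replicate 2, from -0.019 (without ApcMin replicate 3) to 0.34 for Gstm5, from -1.05 to 0.0056 (without ApcMin replicate 2) for Sult6b2, from -1.03 to 1.18 for Sult1c2 (0.0098 without ApcMin replicate 1 and 0.39 without ApcMin replicate 2) and from -0.35 (without ApcMin replicate 2) to 0.65 for Ugt2b36 (-0.33 without Apc1322T replicate 1). The cause was not tested. DESeq2 put Slc7a11 (1.24) and Abcc4 (1.31) past the threshold. Members with few counts, such as Sult2a8 (at most 20) and Sult5a1 (at most 49), have the larger counting error, and its share in the spread between libraries was not tested.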
